A study of Homo sapiens with 28 samples.

Results

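The nuclear-encoded genes of oxidative phosphorylation were examined in 7 human AML cell lines exposed to Pinometostat, an inhibitor of the histone methyltransferase DOT1L. Members were all genes whose symbol on the Clariom S array begins with NDUFA, NDUFB, NDUFC, NDUFS, NDUFV, UQCR, COX4I, COX5, COX6, COX7, COX8 or ATP5, plus SDHA to SDHD, without assembly factors and pseudogenes. The choice used names and no measured value, but was made with earlier results of these data known. It gave 79 of the 17687 genes measured by name, each with 1 probe set: 32 genes of complex I, 3 of complex II, 8 of complex III, 17 of complex IV and 17 of complex V, its inhibitor gene ATP5IF1 among them. The other 2 belong to no complex, namely NDUFV1-DT, a non-coding transcript beside NDUFV1, and ATP5MF-PTCD1, a read-through transcript whose probes may also read ATP5MF.

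The MLL gene is rearranged (MLL-r) in NOMO-1, THP-1, MV4-11 and MOLM-13. It is not rearranged in OCI-AML3, U-937 or HL-60 (non-MLL-r). Every line was cultured for 8 days with 1 µM Pinometostat or with 0.01% DMSO, the control vehicle, and each line and condition has 2 arrays, 28 in all. Signals are log2 values normalized together, with array medians of 5.61 to 5.76. Whether the replicates were separate cultures is not stated, so p-values measure the spread between these arrays, which may be technical. Each line is one established cell culture, so a value describes that line. Markers of myeloid cells averaged 7.30 to 10.4 log2 in treated and 7.30 to 9.81 log2 in control cells, while T cell markers averaged 3.58 to 4.32 log2 in treated and 3.66 to 4.30 log2 in control cells. DOT1L transcript, which encodes the drug's target enzyme, differed between treated and control cells by -0.35 (THP-1) to 0.17 (MOLM-13) log2, with no adjusted p under 0.05 in limma. The drug acts on the enzyme, so its transcript does not check the labels.

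Oxidative phosphorylation couples electron transport in the inner mitochondrial membrane to ATP synthesis. Complex I (NADH dehydrogenase) and complex II (succinate dehydrogenase) pass electrons to ubiquinone, complex III (cytochrome bc1) hands them to cytochrome c, complex IV (cytochrome c oxidase) reduces oxygen, and complex V (ATP synthase) uses the proton gradient. Mitochondrial DNA encodes only a small number of core subunits, so the rest depend on nuclear transcription and on import into the organelle. AML cells are known to rely strongly on this pathway. Nuclear respiratory factor 1 (NRF1), ETS family factors such as GABP, and YY1 are known activators of many of these genes.

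Upstream sequence of 4 members on which the comparisons turn is printed to show how their promoters differ: COX8C, high in 1 line, COX4I1, low in HL-60, and NDUFA8 and NDUFV1, low in treated NOMO-1 cells. Each run is the 250 bases before the annotated start, 5′ to 3′ on the gene's strand, from RefSeq on GRCh38.p14. Capitals mark matches, on either strand, to TGCGCA (core of the NRF1 motif), CCGGAA (ETS) or AANATGGC (YY1).
COX8C (chr14:93346932-93347181, + strand): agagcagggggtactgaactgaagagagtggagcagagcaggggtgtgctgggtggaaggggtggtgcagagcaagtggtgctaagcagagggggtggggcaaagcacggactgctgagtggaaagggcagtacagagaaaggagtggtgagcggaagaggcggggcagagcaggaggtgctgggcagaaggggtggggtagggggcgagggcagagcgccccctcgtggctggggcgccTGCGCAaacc
COX4I1 (chr16:85799445-85799694, + strand): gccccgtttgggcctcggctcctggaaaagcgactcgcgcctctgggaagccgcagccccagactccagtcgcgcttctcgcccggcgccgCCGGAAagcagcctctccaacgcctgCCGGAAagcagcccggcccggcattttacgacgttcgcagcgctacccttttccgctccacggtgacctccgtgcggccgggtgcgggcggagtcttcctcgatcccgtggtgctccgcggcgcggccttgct
NDUFA8 (chr9:122159780-122160029, - strand): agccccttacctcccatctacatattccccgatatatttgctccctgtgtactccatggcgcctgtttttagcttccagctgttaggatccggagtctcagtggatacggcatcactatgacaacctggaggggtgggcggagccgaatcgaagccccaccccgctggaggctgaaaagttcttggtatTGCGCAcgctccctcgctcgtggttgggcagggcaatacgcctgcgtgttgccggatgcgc
NDUFV1 (chr11:67606686-67606935, + strand): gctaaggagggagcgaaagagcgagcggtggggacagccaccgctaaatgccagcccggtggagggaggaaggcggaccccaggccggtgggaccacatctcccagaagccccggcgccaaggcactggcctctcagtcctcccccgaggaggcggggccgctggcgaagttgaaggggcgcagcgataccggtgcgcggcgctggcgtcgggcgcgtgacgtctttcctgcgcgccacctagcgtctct
COX8C, which encodes a testis isoform, held 1 NRF1 match that begins 10 bases before the start and 8 CpG dinucleotides, whereas COX4I1, the ubiquitous isoform of another complex IV subunit, held 34 CpG and 2 ETS matches. NDUFA8 had 16 CpG and 1 NRF1 match that begins 61 bases before the start, and NDUFV1 had 27 CpG and 0 matches. A promoter was listed for 64 of the 79 members, with 76 starts in all. The NRF1 letters, which read the same on both strands, occurred in 22.4% of these 76 windows, against 6.89% of all 35116 promoter windows. The ETS letters occurred in 34.2% of member windows against 14.5% of all, and the YY1 letters in 6.58% against 3.86%. Member windows held a median of 16.5 CpG, against 11 in all windows, and the NRF1 and ETS letters each contain a CpG. The part of this in the shares of matches was not tested. A match is a description of letters and not evidence of binding.

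The first question was whether Pinometostat changed these transcripts within a line. No member passed an adjusted p of 0.05 in any of the 7 lines, in limma on 2 treated against 2 control arrays without pairing. Over the 7 lines together 0.543% of all gene tests passed with a higher and 0.148% with a lower treated level. At an unadjusted p under 0.05, 5 members were lower in treated NOMO-1 cells (6.33% of the 79, against 5.17% of all genes tested). In MV4-11 1 member was lower (1.27% against 4.93%), in MOLM-13 also 1 (1.27% against 0.356%), and in the other 4 lines 0, against 2.34% of all genes in THP-1, 1.74% in OCI-AML3, 1.51% in U-937 and 0.633% in HL-60. No member was higher at that threshold in any line, against 6.03% of all genes in NOMO-1, 5.02% in MV4-11, 3.52% in THP-1, 1.4% in MOLM-13, 3.62% in OCI-AML3, 2.17% in U-937 and 0.814% in HL-60. The count in NOMO-1 was 2 without treated replicate 1 (2.53% against 4.34% of all genes) and 1 without treated replicate 2 (1.27% against 1.72%). In these fits the lone treated array is assumed to vary like the controls. The absence of calls after adjustment depends on leaving out the pairing. With the replicate number in the fit, 9 members passed as lower in NOMO-1 (11.4%, against 7.61% of all genes). In that fit 1 passed as lower in MV4-11 (1.27% against 2.71%) and 1 as higher in THP-1 (1.27% against 2.89%).

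NOMO-1, a monocytic MLL-r line, had the lowest values as a group. The median treated minus control difference of the 79 genes was -0.32 log2 in NOMO-1, against -0.01 for all genes tested there. In NOMO-1, 68 of 79 members were lower in treated cells (86.1%, against 51.5% of all genes), 59 were lower in both replicate pairs (74.7% against 34.7%), and for 42 the treated arrays lay below both control arrays (53.2% against 20%). MV4-11, which carries MLL-AF4, followed with a median of -0.13 against -0.02 and 54 members lower (68.4% against 52.5%). In the other lines the member median lay between -0.03 (THP-1) and 0.04 (OCI-AML3). The member differences by line and complex show NOMO-1 below the rest.

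**Figure D1:**
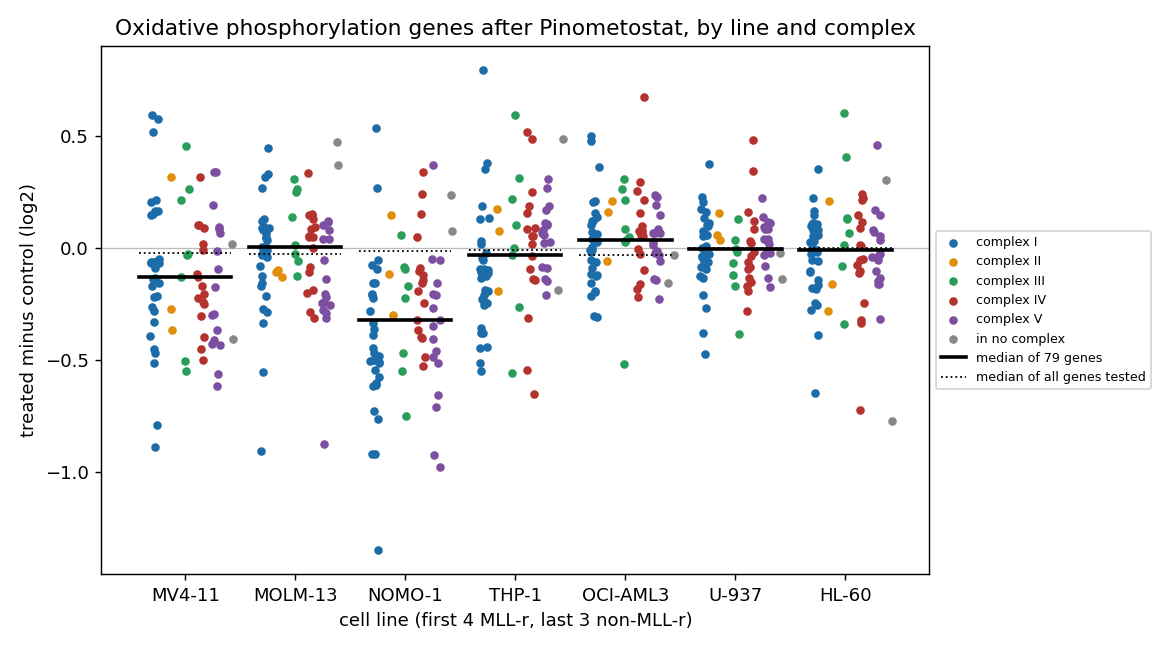
Treated minus control log2 difference (vertical axis) of each of the 79 genes in each line (horizontal axis), coloured by complex; the thick bar is the median of the 79 genes and the dotted bar that of all genes tested. The thick bar lies at -0.32 in NOMO-1 and -0.13 in MV4-11, and between -0.03 and 0.04 in the other 5 lines.

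Complex I, which contributed NDUFA8, NDUFA5 and NDUFV1 to the 5 members, had the lowest complex median in NOMO-1, at -0.48 log2 with 30 of 32 genes lower. Complex V followed at -0.35 with 16 of 17 lower, complex III at -0.20 with 7 of 8, complex IV at -0.16 with 13 of 17 and complex II at -0.12 with 2 of 3. Outside NOMO-1 the complex I median lay between -0.12 (THP-1) and 0.02 (OCI-AML3). The order of complexes differed in MV4-11, with -0.27 for complex II, -0.17 for IV and V, -0.08 for I and -0.03 for III. In MOLM-13 complex V had a median of -0.21, while the other complexes lay between -0.11 (II) and 0.07 (III). Whether complexes differ from one another was not tested.

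NDUFA8, an accessory subunit of complex I, was the only member past the study's thresholds, an unadjusted p under 0.05 with a log2 difference of at least 1 (3.12% of all genes passed in the same direction in NOMO-1). Over the 7 lines together 0.896% of all gene tests passed these with a lower and 1.74% with a higher level. The NDUFA8 signal was 6.79 and 6.06 in treated NOMO-1 cells, against 7.88 and 7.66 in control cells. Both treated arrays lay below both control arrays (20% of all genes in NOMO-1), with a difference of -1.35 ± 0.37 log2 (SE, n = 2 each, limma adjusted p = 0.129). In the other lines the NDUFA8 difference ranged from -0.39 (MV4-11) to 0.48 (OCI-AML3).

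The remaining members at an unadjusted p under 0.05 in NOMO-1 were named after their values were seen, except ATP5F1D. NDUFV1, the subunit that binds NADH and flavin, measured 8.98 and 8.72 in treated against 9.73 and 9.82 in control cells (-0.92 ± 0.33 log2, limma adjusted p = 0.28). NDUFA5, another complex I subunit, measured 5.67 and 4.75 in treated against 6.32 and 5.94 in control cells (-0.92 ± 0.40, adjusted p = 0.431). For both, the treated and control arrays did not overlap. ATP5F1D, the delta subunit of the ATP synthase central stalk, measured 6.59 and 7.25 in treated against 7.58 and 8.21 in control NOMO-1 cells (-0.98 ± 0.39, adjusted p = 0.357). ATP5ME, a membrane subunit of complex V, measured 7.64 and 7.76 in treated against 8.38 and 8.87 in control cells (-0.93 ± 0.34, adjusted p = 0.307). Here too the groups did not overlap, but these genes are listed for their p on the same arrays, so this adds no support.

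The replicate numbers pair the arrays, and with that number as a block the calls in NOMO-1 changed. Under the block 9 members were lower in treated NOMO-1 cells at a limma adjusted p under 0.05 (11.4%, against 7.61% of all genes): the 5 above with NDUFC1, NDUFS4, UQCRQ and ATP5MC1, the last of which encodes the c subunit of the ATP synthase rotor. Their adjusted p ran from 0.000427 (NDUFA8) to 0.0485 (ATP5MC1). UQCRQ, a small complex III subunit, measured 8.43 and 8.10 in treated against 9.01 and 9.02 in control cells. NDUFS4, a complex I subunit mutated in Leigh syndrome, measured 7.73 and 7.73 in treated against 8.19 and 8.80 in control cells. Treated and control arrays were apart for both genes, which are likewise listed for their p on these arrays.

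**Figure D2:**
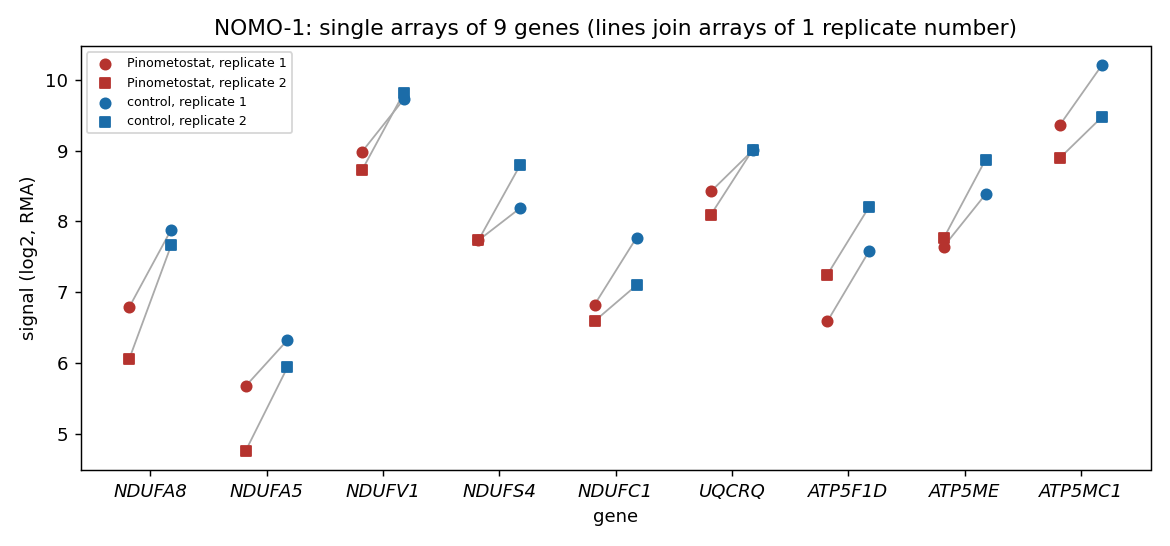
Log2 signal (vertical axis) of 9 genes (horizontal axis) on the 4 NOMO-1 arrays, with Pinometostat in red left of control in blue; lines join the arrays of the same replicate number (circles 1, squares 2). The 9 genes are listed for their p on these arrays. For all 9 genes both red points lie below both blue points, from 6.06 and 6.79 against 7.66 and 7.88 in NDUFA8 to 8.90 and 9.37 against 9.48 and 10.21 in ATP5MC1.

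Outside NOMO-1 the single genes were few. NDUFV2, a core subunit that holds an iron-sulfur cluster, measured 7.29 and 6.80 in treated MV4-11 cells, against 7.98 and 7.89 in control cells. The groups did not overlap (19.7% of all genes in that direction), and NDUFV2 is listed for its p on these arrays. The difference was -0.89 ± 0.29 log2 (limma adjusted p = 0.283, and 0.0417 with the block, where 2.71% of all genes passed as lower). ATP5F1D measured 8.89 and 9.47 in treated MOLM-13 cells, against 9.87 and 10.25 in control cells (-0.88 ± 0.35, adjusted p = 1, and 0.168 with the block). NDUFB5, a complex I subunit of the membrane arm, was the single member higher under the block, with 10.29 and 9.54 in treated THP-1 cells against 9.51 and 8.73 in control cells (0.79 ± 0.37, adjusted p = 0.892, and 0.0426 with the block, where 2.89% of all genes passed as higher). The lower treated array lay just above the higher control array, and replicate 1 was the higher array in both conditions.

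A shift between replicate numbers ran through these genes. The member median was higher in replicate 1 than in replicate 2 in both conditions of all 7 lines, by 0.00 (NOMO-1 controls) to 0.39 log2 (OCI-AML3 controls), while the median of all genes shifted by 0.00 to 0.06. The within-pair medians in NOMO-1 were -0.22 for replicate 1 and -0.46 for replicate 2, so the difference there held in each pair. What produced the replicate shift was not tested.

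Across lines, with each line as 1 sample, no member passed adjustment (limma, smallest adjusted p = 0.266). At an unadjusted p under 0.05, 4 members were lower (5.06%, against 7.23% of all genes) and 1 was higher (1.27% against 5.78%). NDUFAB1, the mitochondrial acyl carrier protein, averaged -0.29 ± 0.09 log2 (SE, n = 7 lines, limma adjusted p = 0.266) and was lower in 6 of 7 lines. The others with lower means were ATP5F1D (-0.36 ± 0.15), UQCRQ (-0.27 ± 0.12) and ATP5MF (-0.20 ± 0.09), a small subunit of complex V. UQCRB, a complex III subunit that lies at the ubiquinone site, averaged 0.29 ± 0.11 (adjusted p = 0.334) and ranged from -0.17 in U-937 to 0.60 in HL-60, with 5 of 7 lines higher. The mean was negative for 56 of 79 members (70.9%, against 53% of all genes).

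NDUFA9 was the only member lower in 7 of 7 lines (1.27%, against 2.75% of all genes), and none was higher in all 7 (1.75% of all genes). Its differences were -0.79 in MV4-11, -0.55 in MOLM-13 and -0.13 to -0.00 in the other 5 lines. These counts moved with the replicates: without control replicate 2, and likewise without treated replicate 1, 23 members were lower at an unadjusted p under 0.05 (29.1%, against 17% and 15.1% of all genes), while without control replicate 1 there were 8 higher (10.1% against 9.7%) and without treated replicate 2 there were 9 (11.4% against 12%). Such settings set arrays of unequal replicate number against each other.

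The response was then compared by MLL status. The difference between the 4 MLL-r and the 3 non-MLL-r lines reached an unadjusted p under 0.05 for UQCRQ alone (lower in MLL-r, 1.27% against 3.14% of all genes; 0 were higher, against 3.04%). Its treated minus control difference averaged -0.48 in MLL-r lines, against 0.01 in non-MLL-r lines (-0.49 ± 0.20 log2, limma adjusted p = 0.787). The call was lost on leaving out any 1 line other than MOLM-13, with differences of -0.40 to -0.52. THP-1 (-0.56), NOMO-1 (-0.75) and MV4-11 (-0.55) were the low lines, and MOLM-13 (-0.06) was near 0.

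Complex II, whose subunits also serve the citric acid cycle, had 0 members at an unadjusted p under 0.05 in any line. SDHA, the flavoprotein that oxidises succinate, ranged from -0.30 (NOMO-1) to 0.15 (U-937), and SDHC and SDHD, the membrane anchors, from -0.37 to 0.21 and from -0.13 to 0.31. Isoforms of restricted tissues also had none at that threshold. COX4I2, the lung and hypoxia isoform, ranged from -0.55 (THP-1) to 0.05, against -0.17 to 0.25 for COX4I1. COX6A2, the heart and muscle isoform, ranged from -0.28 to 0.33, and COX6A1 from -0.53 to 0.15. COX7A1, also of muscle, ranged from -0.22 to 0.21, and COX7A2 from -0.50 to 0.10. UQCRHL and ATP5MGL are near-identical copies of UQCRH and ATP5MG, so their probe sets may read the parent transcript, which was not tested. Control levels in MLL-r and non-MLL-r lines averaged 5.52 and 5.61 for UQCRHL, against 9.03 and 8.85 for UQCRH. They averaged 4.06 and 4.16 for ATP5MGL, against 9.97 and 9.71 for ATP5MG.

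The level in control cells was compared between the 7 lines. The limma F test over lines passed an adjusted p of 0.05 for 19 of 79 (24.1%, against 29.8% of all genes), and for 41 with the replicate number as a block (51.9% against 46.5%). HL-60, a promyelocytic line, held the largest group of line-specific levels, with 17 members lower than in the other 6 lines (21.5%, against 14.1% of all genes) and 1 higher (1.27% against 7.65%). HL-60 had the lowest control mean of the 7 lines in 32 members (40.5% against 18.5%). The member median of HL-60 minus the other lines was -0.21 log2, against 0.08 for all genes.

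The 17 spread over all complexes: 5 of complex I, 1 of II, 4 of III, 3 of IV and 4 of V. NDUFB9, an accessory complex I subunit, measured 8.78 and 9.23 in HL-60 controls, against line means of 10.35 to 11.26 elsewhere (-1.75 ± 0.19 log2, SE, limma adjusted p = 1.18e-05). COX4I1, the general isoform named above, measured 8.01 and 7.37, against 8.42 to 9.23 (-1.11 ± 0.22, adjusted p = 0.00176). In both genes the HL-60 arrays lay below every other line's mean, but both are among the 17 called on these arrays, so this adds no support. The HL-60 difference was -1.20 ± 0.28 log2 for NDUFC1, an accessory complex I subunit, and -1.07 ± 0.19 for ATP5F1C, the gamma subunit of the central stalk. SDHA measured 8.12 and 8.03 in HL-60, against line means of 8.31 to 9.63. Among complex III genes the HL-60 difference was -1.07 for UQCRQ, -0.86 for UQCRB, and -0.85 and -0.76 for the core protein genes UQCRC1 and UQCRC2. NDUFA10, a complex I subunit, was the 1 member higher in HL-60, with 9.03 and 8.97 against line means of 8.09 to 8.40 (0.74 ± 0.20, adjusted p = 0.0151). Under the replicate block, 25 members were lower (31.6% against 19.4%) and 5 higher (6.33% against 15.3%) in HL-60, the 5 being NDUFA10 with COX6B2, COX7A1, NDUFA5 and NDUFS6.

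MOLM-13 stood at the other end, with the highest control mean of the 7 lines in 20 members (25.3%, against 9.96% of all genes). Of the 4 members higher there (5.06% against 3.26%), NDUFB9 (0.88), COX6C (0.99) and UQCRB (1.05) are the 3 members on chromosome 8, and the fourth is ATP5F1D (1.11 ± 0.24, adjusted p = 0.0095). No member was lower there (3.24% of all genes), and none was higher in MV4-11 (3.58%). COX6C, a cytochrome c oxidase subunit, measured 10.21 and 9.72 in MOLM-13 controls and 8.24 and 7.86 in HL-60 controls. UQCRB measured 9.35 and 8.99 in MOLM-13 and 7.96 and 7.10 in HL-60. The arrays of both lines were apart for COX6C and UQCRB, but these genes were called on the same arrays, so this adds no support. The 3 were also lower in HL-60, by differences of -1.75, -1.25 and -0.86. Over all 609 genes of chromosome 8 the median control level minus the other lines was 0.21 in MOLM-13 (all genes -0.03) and -0.28 in HL-60 (all genes 0.08). The part of this shift in the 3 genes was not tested.

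COX8C had the largest range of any member. Its signal in U-937 was 8.18 and 8.13 in treated cells, against 8.46 and 8.12 in control cells, and every other array of the series lay between 3.51 and 5.03. U-937 controls exceeded the mean of the other lines by 4.19 ± 0.24 log2 (SE, limma adjusted p = 3.83e-08). The control means of the other lines, 3.81 to 4.87, exceeded those of only 22.4% to 35.7% of all genes, and detection calls were not used here. Where those signals are background, 4.19 is a lower bound. Its treated minus control difference in U-937 was -0.13 ± 0.22, smaller than its SE. Its calls as lower in MV4-11 (1.27% of members, against 3.04%) and THP-1 (2 members lower, 2.53% against 2.36%) are set against a mean that includes U-937. COX8A, the general isoform, had control means of 9.93 to 10.70 in the 7 lines with an F test adjusted p of 0.627.

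**Figure D3:**
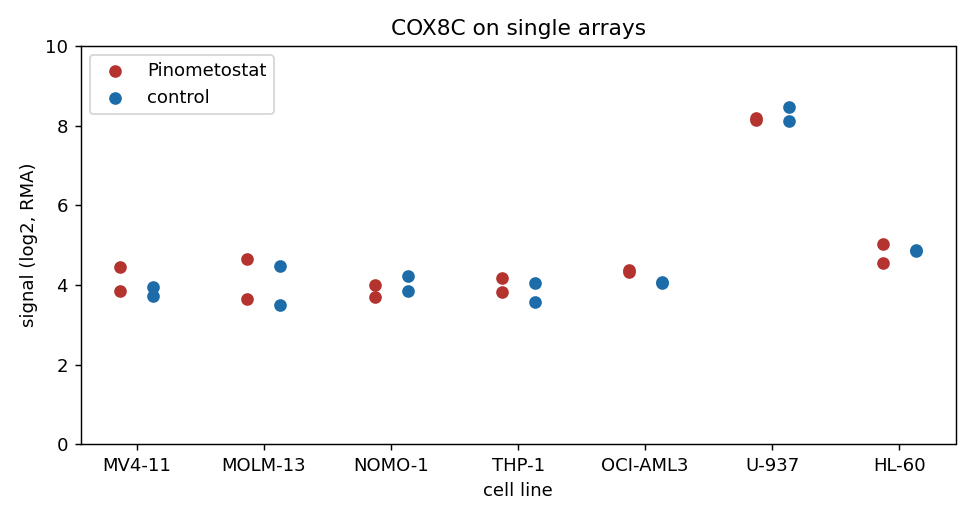
Log2 signal of COX8C (vertical axis) on all 28 arrays by line (horizontal axis), with Pinometostat in red left of control in blue. The 4 U-937 arrays lie between 8.12 and 8.46 and every other array between 3.51 and 5.03.

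Other lines had few line-specific members. ATP5F1D was low in NOMO-1 controls (7.58 and 8.21, -1.42 ± 0.24, adjusted p = 0.000825), as was ATP5MC1 (-0.88; 2 lower, 2.53% against 4.7%), while 5 members were higher (6.33% against 7.76% of all genes), among them NDUFS6 (0.86) and NDUFB5 (0.88). U-937 had 6 lower (7.59% against 5.81%), led by UQCRQ (-1.06) and COX7A2 (-0.93), and 3 higher (3.8% against 6.03%), which beside COX8C were COX7B and ATP5MC3, another c subunit gene. UQCRQ was also low in HL-60 (-1.07) and high in THP-1 (0.99, the 1 member higher there, 1.27% against 4.18%). NDUFA8 was low in THP-1 (6.81 and 6.04, -0.91 ± 0.24, adjusted p = 0.0309). OCI-AML3 had 3 higher (3.8% against 4.76%) and 0 lower (3.3%), with SDHA at 9.64 and 9.62 (0.81 ± 0.19, adjusted p = 0.0114).

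**Figure D4:**
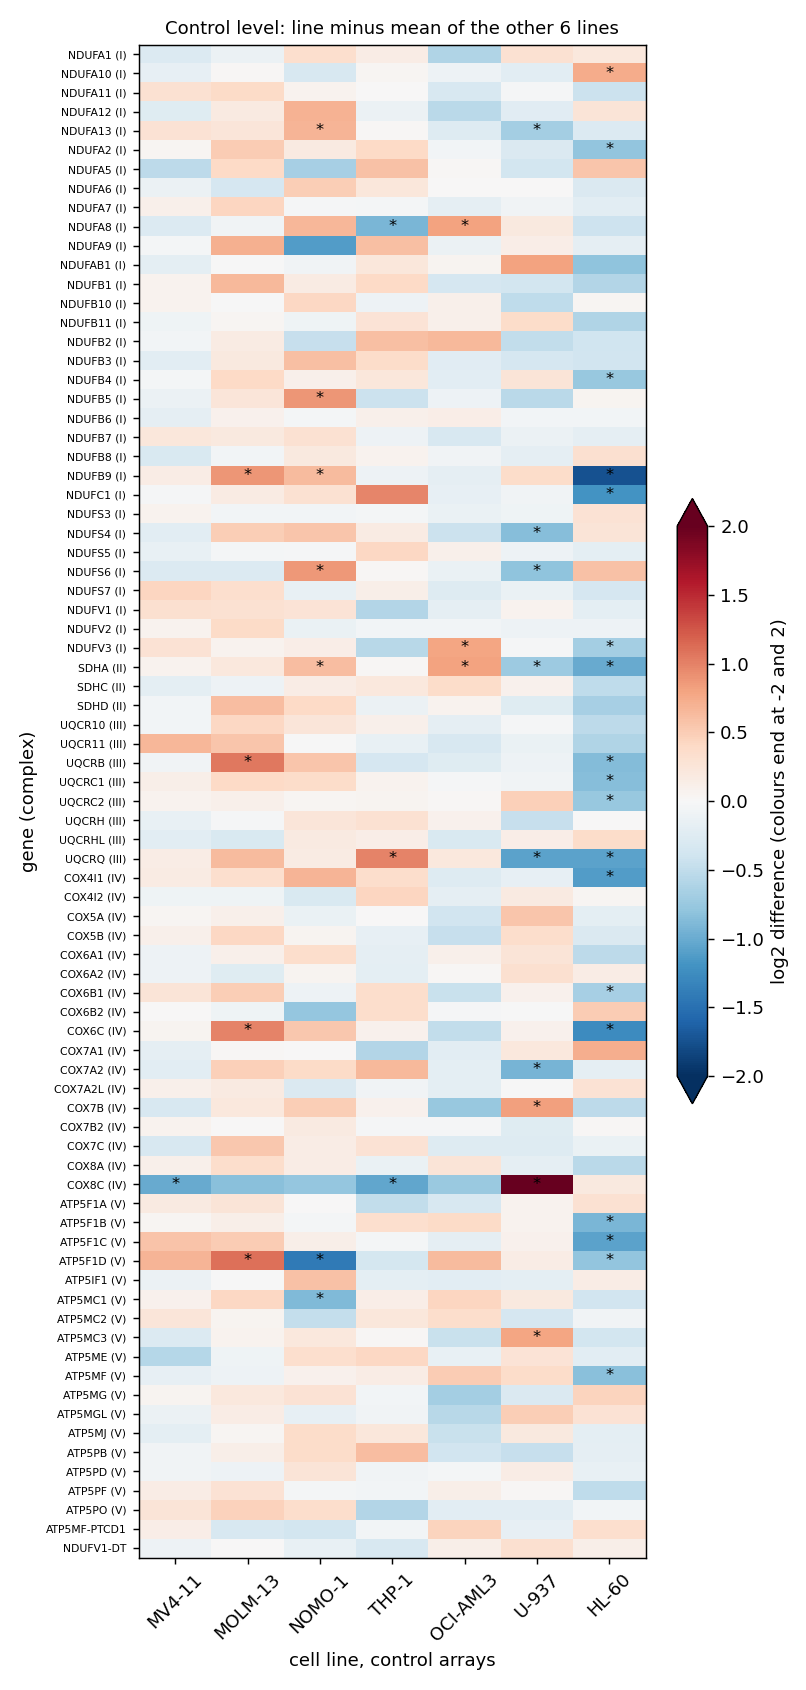
Control level of each gene (rows, complex in brackets) in each line (columns) minus the mean of the other 6 lines, in log2; red is higher and blue lower, and a star marks a limma adjusted p under 0.05. HL-60 holds 17 blue starred cells, and the darkest red cell is COX8C in U-937 at 4.19, beyond the end of the colour scale and a lower bound where the signal of the other lines is background.

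Control levels of MLL-r and non-MLL-r lines were compared over line means. At an unadjusted p under 0.05, 10 members were higher in MLL-r lines (12.7%, against 3.34% of all genes) and 0 lower (3.15%), and none passed adjustment (limma adjusted p of 0.736 for each of the 10). The line means did not overlap for 11 higher members (13.9% against 2.98%) and 2 lower (2.53% against 4.77%). UQCRQ averaged 9.28 in MLL-r and 8.32 in non-MLL-r lines (0.96 ± 0.33 log2), and COX4I1 averaged 8.97 and 8.20 in MLL-r and non-MLL-r lines (0.77 ± 0.24). NDUFB1, a small complex I subunit, had the smallest p of the 10 (0.64 ± 0.17) and line means of 9.06 to 9.56 in MLL-r against 8.50 to 8.72 in non-MLL-r lines. Without MOLM-13 the count was 5 (6.33% against 2.46%). HL-60 is 1 of the 3 non-MLL-r lines, and the count without MOLM-13 does not say how far the 10 depend on HL-60.

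Genes that build and supply these complexes were read from lists of general knowledge, likewise chosen with earlier results of these data known. In NOMO-1 the 74 genes of the mitochondrial ribosome, which translates the mitochondrially encoded subunits, had a median of -0.75 log2, against -0.32 for the 79 members. At an unadjusted p under 0.05, 30 of the 74 were lower (40.5%, against 5.17% of all genes) and 0 higher. MRPL33 alone passed adjustment (1.35% against 0.441%; 5.11 in treated and 7.29 in control cells, -2.18 ± 0.35, limma adjusted p = 0.0149). Under the block 41 of 74 were lower at an adjusted p under 0.05 (55.4% against 7.61%). The 21 import genes had a median of -0.74 with 9 lower (42.9% against 5.17%), led by the chaperones HSPE1 (-1.49 ± 0.37, adjusted p = 0.0933) and HSPD1 (-1.27 ± 0.34, adjusted p = 0.115). Of 51 assembly factors 6 were lower (11.8% against 5.17%, median -0.41), including NDUFAF4 (-1.43 ± 0.50) of complex I and UQCC2 (-1.30 ± 0.38) of complex III. In OCI-AML3, 1 of 5 mitochondrial carrier genes passed adjustment as higher (20% against 0.758% of all genes), and the other 4 had negative differences. It was SLC25A4, at 6.80 in treated and 5.24 in control cells (1.55 ± 0.31, limma adjusted p = 0.0306).

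Of 15 regulators of mitochondrial biogenesis, 3 were lower in NOMO-1 (20% against 5.17% of all genes, median -0.51). TFAM, which packages and transcribes mitochondrial DNA, averaged 8.32 in treated and 9.66 in control cells (-1.34 ± 0.37, limma adjusted p = 0.136, and 0.000541 with the block). NRF1 (-0.25), PPRC1 (-0.72), MYC (-0.49) and PPARGC1B (0.15) did not pass an unadjusted p of 0.05 there, and PPARGC1A did (-0.77 ± 0.33). Under the block 6 of the 15 were lower at a limma adjusted p under 0.05 (40% against 7.61% of all genes), PPRC1 among them (0.0427). In THP-1 PPARGC1A, a coactivator of the pathway, averaged 5.99 in treated and 4.60 in control cells (1.39 ± 0.32, adjusted p = 0.13, and 0.00189 with the block). CYCS, cytochrome c, gave 0.24 ± 0.52 in NOMO-1. In MV4-11, 4 of the 51 assembly factors were lower at an unadjusted p under 0.05 (7.84%, against 4.93% of all genes). COX20, a complex IV assembly factor, was the 1 factor higher there (0.83 ± 0.28, 1.96% against 5.02% of all genes).

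The 16 citric acid cycle genes had medians of -0.30 in NOMO-1 and -0.31 in MV4-11, with 0 and 1 lower at an unadjusted p under 0.05 (0% against 5.17%, and 6.25% against 4.93%). The 21 glycolysis genes had a median of 0.23 in NOMO-1, with 2 higher (9.52% against 6.03%) and 3 lower (14.3% against 5.17%), and of -0.65 in MV4-11, with 10 lower (47.6% against 4.93%), among them LDHA (-1.31 ± 0.31) and the glucose transporter gene SLC2A1 (-1.34 ± 0.28). In MV4-11 the mitochondrial ribosome list had 13 lower of 74 (17.6% against 4.93%) and a median of -0.39. Its median was -0.21 in MOLM-13 and -0.19 in THP-1, and between -0.09 (OCI-AML3) and 0.03 (HL-60) in the remaining lines. The import genes had medians of -0.37 in MV4-11, -0.23 in MOLM-13 and -0.20 in THP-1, and -0.12 (OCI-AML3) to -0.01 (HL-60) in the rest. The member medians in MOLM-13 and THP-1 were 0.00 and -0.03.

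Other cell features moved in NOMO-1, and some also in lines where the member median was near 0. The 27 DNA replication genes had medians of -0.84 in NOMO-1 and -0.91 in MV4-11, with 12 lower in NOMO-1 (44.4% against 5.17%) and 21 lower in MV4-11 (77.8% against 4.93%) at an unadjusted p under 0.05. The 16 monocyte and macrophage genes had a median of 1.93 in NOMO-1, with 12 higher (75% against 6.03%) and 1 lower (6.25% against 5.17%) at an unadjusted p under 0.05, and 7 higher after adjustment (43.8% against 1.68%), including CD14 (10.31 in treated and 6.67 in control cells). In MV4-11 their median was 0.46 with 3 higher (18.8% against 5.02%). It was 0.53 in THP-1 with 7 higher (43.8% against 3.52%) and 0.50 in OCI-AML3 with 7 higher (43.8% against 3.62%). In the remaining lines it lay between 0.18 (HL-60) and 0.39 (MOLM-13). The DNA replication median was -0.27 in MOLM-13, -0.21 in OCI-AML3, -0.15 in THP-1, and -0.01 in U-937 and HL-60. The member medians were 0.00 in MOLM-13, -0.03 in THP-1 and 0.04 in OCI-AML3. The part of these lists in the member differences was not tested, and in cell populations a smaller share of a cell state and less RNA per cell cannot be told apart.

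**Figure D5:**
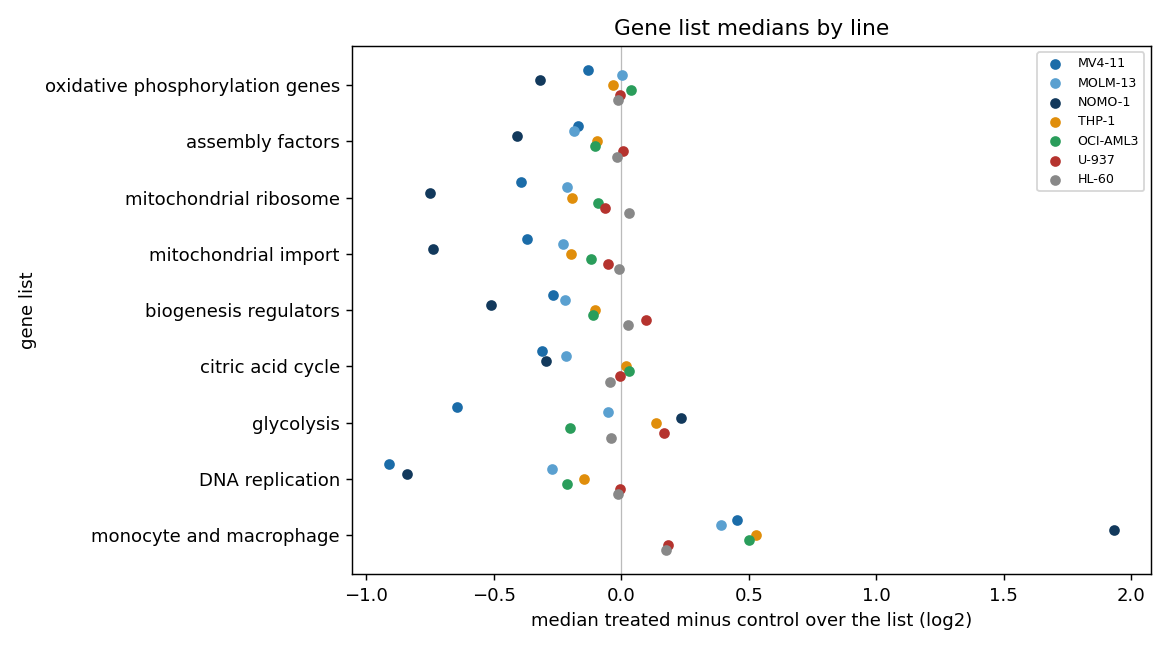
Median treated minus control log2 difference (horizontal axis) of 9 gene lists (rows), with 1 point per line. NOMO-1 lies at -0.32 for the oxidative phosphorylation genes, -0.75 for the mitochondrial ribosome and 1.93 for the monocyte and macrophage genes, while HL-60 lies within -0.04 to 0.18 for the 9 lists.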

How the data were processed

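The authors' deposited file held log2 signals per probe set from Clariom S arrays, made by RMA (background correction, quantile normalization, summary over probes) with R 3.6.1, per the submitters' processing notes and the study's methods. Filters before deposit: not given in the sources used here. Probe sets with 1 gene symbol (17709) were averaged per symbol, which gave 17687 genes, all tested. Treated and control arrays (2 against 2 per line) were compared with limma 3.58.1 (lmFit, eBayes) in R 4.3.3. P-values were Benjamini-Hochberg adjusted over all 17687 genes. Line differences and control line means (n = 7) and the 14 control arrays were fitted likewise. Same-numbered treated and control arrays deviated together from their group means (r = 0.42 to 0.64 across genes in 7 lines), so the replicate number was also fitted as a block.

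Alternatives were array median centring, a mean signal of at least 5 log2, a spread pooled over lines, and leaving out replicates or lines. The block with pooled spread was chosen after seeing the data. The procedure was tested on simulated data. Members, gene lists and tests were chosen with earlier results of these data known. Named members were those past a threshold in a line, the extremes of each complex over 7 lines, those of 1 sign in 7 of 7 lines, the widest control ranges, and isoform pairs. Other genes named by size were chosen after their values were seen. All 28 sample columns were used. The number of arrays limits the precision. Some subunit genes are not reported here.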

Additional observations from a re-analysis of the deposited data

Results flagged for a closer look

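Values of 7 lines were screened for 1 line far from the rest, in 82 sets of control levels, treated minus control differences and complex medians of the named members. A gap to the nearest line beyond Dixon's 95% critical value was marked, which chance gives in about 1 of 20 sets, and 6 values were marked. That rate does not hold for members named for wide control ranges or extreme means (COX8C, NDUFA10, NDUFB9 and NDUFB10 among the 6). In control cells COX8C was highest in U-937 (8.29 log2, gap 0.764 of the range), NDUFA10 was highest in HL-60 (9.001, gap 0.659) and NDUFB9 was lowest in HL-60 (9.01, gap 0.595). For treated minus control, COX4I2 was lowest in THP-1 (-0.55, gap 0.576), NDUFB10 was lowest in NOMO-1 (-0.62, gap 0.647), and the median of complex I was lowest in NOMO-1 (-0.48, gap 0.723). No member moved one way in all 4 MLL-r lines and the other way in all 3 non-MLL-r lines.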

How the results depend on the processing

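With the replicate number as a block, members lower and higher at an unadjusted p under 0.05 were 8 and 3 in MV4-11, 21 and 1 in NOMO-1, 7 and 4 in THP-1, 3 and 1 in HL-60, 1 and 2 in both OCI-AML3 and U-937, and 3 lower in MOLM-13. The member share lay above that of all genes for lower calls in NOMO-1 (26.6% against 13.9%), THP-1 (8.86% against 7.89%) and HL-60 (3.8% against 2.06%), and below it for the other 11, such as lower calls in MV4-11 (10.1% against 11.6%). Over the 7 lines 10 lower and 1 higher passed adjustment. With the block and pooled spread the same counts were 14 and 4 in MV4-11, 31 and 1 in NOMO-1, 7 and 4 in THP-1, 4 and 2 in HL-60, 3 lower in MOLM-13, 1 and 3 in OCI-AML3, and U-937 had 1 lower, with 17 lower and 2 higher after adjustment. Here the share lay above that of all genes for lower calls in NOMO-1 (39.2% against 15.3%), MV4-11 (17.7% against 11.4%) and THP-1 (8.86% against 6.68%) only. With pooled spread alone 12 members were lower in NOMO-1 (15.2% against 8.45%), 2 in MV4-11, 1 each in THP-1 and HL-60, and 2 passed adjustment. Between control lines the block gave 41 members past the F test (51.9% against 46.5% of all genes), 5 higher in HL-60 (6.33% against 15.3%), and 44 higher and 48 lower over all lines, against 17 and 28 without it.

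Array median centring gave medians of -0.16 in MV4-11 and 0.0079 in U-937 and 2 members lower in MV4-11, 2 members lower in MLL-r against non-MLL-r response, and control medians of -0.072 in MV4-11 and -0.065 in U-937. The dim gene filter gave control medians of -0.037 in MV4-11 and -0.28 in HL-60.

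Leaving out 1 treated or 1 control array of each line left a lone array in 1 arm, so only medians are given here for single lines. Medians ranged from -0.23 to -0.046 in MV4-11, -0.16 to 0.11 in MOLM-13, -0.48 to -0.20 in NOMO-1, -0.16 to 0.13 in THP-1, -0.14 to 0.20 in OCI-AML3, -0.10 to 0.10 in U-937, and HL-60 gave -0.068 to 0.080. So the negative sign held in each such setting in NOMO-1 and MV4-11 only. For the mean over lines 3 to 23 were lower and 0 to 9 higher, and for MLL-r against non-MLL-r response 2 to 4 lower and 0 to 2 higher. Control medians ranged from -0.034 to -0.032 in MV4-11 and -0.29 to -0.22 in HL-60.

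Without 1 line, the mean over lines had 0 members higher without MV4-11, MOLM-13, THP-1, OCI-AML3 or HL-60, and 1, 2 and 2 lower without MV4-11, NOMO-1 and HL-60. The MLL-r against non-MLL-r response had 0 lower without MV4-11, NOMO-1, OCI-AML3 or U-937, 3 without MOLM-13, 4 without THP-1 and 2 without HL-60. For control levels, 5 members were higher in MLL-r lines without MOLM-13, and 1 was lower without OCI-AML3. The cause of these moves was not tested. Counts in this section without an all-gene share beside them are no result about the members. No gene called at an unadjusted p under 0.05 changed sign in these settings, whereas the treated minus control medians near 0, those of MOLM-13, THP-1, OCI-AML3, U-937 and HL-60, changed sign in 2 or more settings each. Control lines with 1 array each could not be tested and gave values only. Signals near 5 log2 or below, as in 5 members, lie below the array medians, and detection calls were not used here.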
